A study of Mus musculus with 9 samples.

Results

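The genes of the voltage-gated ion channel family were described in cultured mouse cells labelled RGCs. RGCs are retinal ganglion cells, the neurons whose axons form the optic nerve, and the study's label is kept here. Members were taken by gene symbol, as all Kcn symbols made of letters and a number (potassium channels), the Cacna, Cacnb, Cacng and Cacna2d symbols (calcium channels) and the Scn symbols ending in a or b (sodium channels). These rules gave 132 of the 22322 genes in the expression table, of which 92 were potassium, 26 calcium and 14 sodium channel genes. The symbol prefixes are broader than the family name, since 113 members carried a GO (gene ontology) term with the words voltage-gated in the deposited annotation. The other 19 belonged to the Kcnk, Kcnmb, Kcnn, Kcnt and Kcnu genes, which encode leak channels, accessory subunits and channels opened by ions. The 3 groups held 3 libraries each and were of wild-type genotype. Normal RGCs were grown in serum-containing medium, and aging RGCs were treated with D-galactose, a sugar used to induce senescence in culture. Aging RGCs + USCs medium were D-galactose-treated cells kept in medium conditioned by human urine-derived stem cells (USCs) that had been removed from it. The cells were a purchased and subcultured stock, the libraries of a group came from replicate wells, and normal RGCs in USCs medium were not analysed here.

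Channel proteins of this family let ions cross the membrane through a pore formed by an alpha subunit, and accessory subunits set where the pore sits and how it opens. In a neuron such as the RGC, sodium channels carry the rising phase of the action potential, potassium channels end it and set the resting potential, and calcium channels couple it to transmitter release and to calcium signalling. Potassium channels also include leak channels with a pair of pore domains per subunit and channels opened by intracellular calcium, which are used by cells that do not fire.

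The label of the cells was set against the marker genes of RGCs. Pou4f2, Pou4f3 and Stmn2, which define RGCs or mature neurons, had 0 counts in all 9 libraries, and Thy1 was at 0.02 FPKM in normal RGCs and listed at 0 in the other groups. FPKM scales fragments by transcript length and sequencing depth, so it allows levels of different genes to be compared. Rbpms, an RNA-binding protein of RGCs that other cells also make, was present at 31.5 FPKM in normal RGCs, 26.4 in aging RGCs and 23.7 with USCs medium. Of the other RGC markers, Nefl, a neurofilament gene, was at 19.4, 11.5 and 4.90 FPKM in the 3 groups, Isl1, a transcription factor gene, at 4.62 to 9.36 FPKM over the 9 libraries, and Tubb3, a neuronal tubulin gene, at 2.58, 1.41 and 10.9 FPKM in the groups. The summed level of the 14 RGC markers was 62.2 ± 0.854 FPKM in normal RGCs, 44.8 ± 1.70 in aging RGCs and 45.1 ± 1.58 in aging RGCs + USCs medium (SD, n = 3), and that of 8 general neuronal markers was 8.17 ± 0.776, 6.10 ± 0.485 and 5.25 ± 0.979. The RGC sum, when USCs medium was set against aging RGCs, held members that moved in opposite directions, as Tubb3 rose (log2 fold change 3.03, adjusted p = 3.1e-17, edgeR) and Nefl fell (-1.16, adjusted p = 4.0e-13). Rbfox3 and Dcx, markers of neurons, were at 0 in all libraries. The epithelial list, led by the keratin gene Krt8, summed to 684, 645 and 696 FPKM. The mesenchymal list summed to 1028, 1097 and 973 FPKM, of which the intermediate filament gene Vim gave 797, 930 and 865. Of the 6 tested mesenchymal markers, 5 were lower in aging than in normal RGCs (adjusted p under 0.05, edgeR) and only Vim was higher. Of all genes tested, 23% were lower and 23.6% higher. With USCs medium against aging RGCs, 3 of the 6 were lower and 0 higher, against 26% and 27.1%. Of the 14 RGC markers, 3 were thus at 0 in all libraries and 4 had a mean of at least 1 FPKM. The rest were low, from 0.0011 FPKM (Nefh) to 0.257 FPKM (Sncg) over the 9 libraries, with Pou4f1 at 0.131. Nearly all of the RGC sum thus came from Rbpms, Nefl, Isl1 and Tubb3, and most of the listed RGC markers were absent or near 0.

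Most channel genes were little used in these cultures. The 9 libraries held between 18189616 and 22342288 counts, of which channel genes took 0.0291%, 0.0276% and 0.0287% in normal RGCs, 0.0277%, 0.0278% and 0.0276% in aging RGCs, and 0.0201%, 0.0206% and 0.0210% in aging RGCs + USCs medium. The share was lower in each library with USCs medium than in each of the other 6. Of the members, 38 had 0 counts in all libraries and 62 had some counts but too few to test, while 32 passed the low-count filter of edgeR, 15 potassium, 13 calcium and 4 sodium channel genes. Of these 32, 25 reached the filter level in all libraries of all 3 groups, 6 in 2 groups and 1, Scn3a, in 1 group. Cacna1c, Cacnb1, Kcnh3, Kcnip4, Kcnq1, Scn3a and Scn7a thus passed through the groups in which they were higher, and counts over the tested members describe those genes and not all members. The median level of the tested members was 0.837 FPKM, against 11.1 FPKM for all 12145 genes tested. In bulk RNA, fewer cells of a type and less RNA per cell cannot be told apart.

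Some channel genes with known roles in the firing of neurons were at or near 0, and these were picked after their values were seen. Others, such as Scn2a and Cacna1a, had enough counts to be tested. Kcna1 and Kcna2, which encode delayed-rectifier subunits of axons, had 0 counts in all 9 libraries. Scn1a, an alpha subunit of neuronal sodium channels, had 3, 5 and 4 counts in normal RGCs, 0, 0 and 2 in aging RGCs and 2, 0 and 1 in aging RGCs + USCs medium. Scn8a, the main sodium channel of the axon initial segment in adult neurons, had 0 to 14 counts in a library. It was not tested, and no direction can be read at these depths.

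The most abundant member was Kcnn4, which encodes the calcium-activated KCa3.1 channel of blood and epithelial cells. Its level was 16.3 ± 0.605 FPKM in normal RGCs, 17.3 ± 0.763 in aging RGCs and 16.8 ± 0.512 in aging RGCs + USCs medium (SD, n = 3), and it made up 22.4% of the summed channel level. It was followed by Cacnb3 at 7.85 FPKM over all libraries, Cacna2d1 at 6.11, Cacnb2 at 5.77, Kcnk5 at 4.97 and Kcnab2 at 4.84. Cacnb3 and Cacnb2 encode beta subunits of calcium channels and Cacna2d1 the alpha2delta-1 subunit, so accessory subunits ranked above all pore-forming calcium channel genes, of which Cacna1h was the highest at 2.47 FPKM. Cacna2d1 and Cacnb2 overlapped in normal RGCs and with USCs medium, and Cacna2d1 was above Cacnb2 in all aging libraries. Kcnk5 and Kcnab2 overlapped in each group, so their order lay within the spread of the libraries. In all, 14 members had a mean of at least 1 FPKM and 34 of at least 0.1. None of the 15 inward-rectifier genes was among the tested genes, and the highest of them by the mean over all libraries, Kcnj14, had 0.110 FPKM. The plot of the highest members shows how far Kcnn4 stood above the rest.

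**Figure D1:**
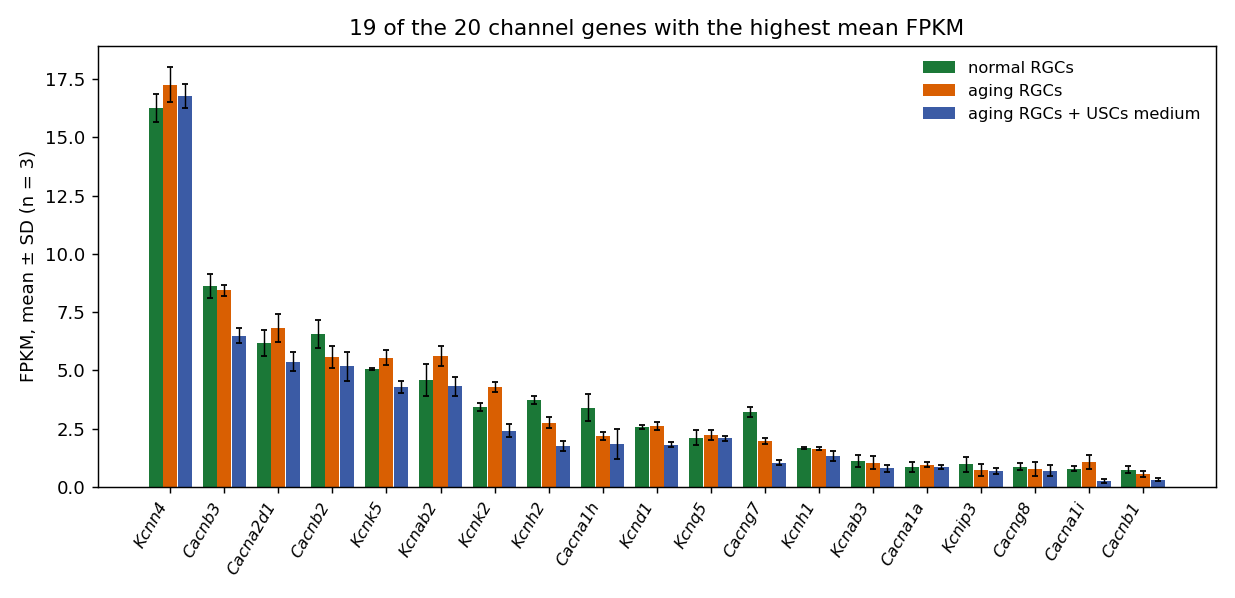
Level (FPKM, linear axis from 0) of 19 of the 20 channel genes with the highest mean over 9 libraries, as bars of the group mean with error bars of 1 SD (n = 3) for the 3 groups. Kcnn4 was at 16.3, 17.3 and 16.8 FPKM, more than any other member.

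Levels were also summed by ion. Summed potassium channel genes were at 46.6, 44.9 and 46.3 FPKM in the normal libraries, 47.3, 46.1 and 47.7 in the aging libraries and 37.7, 40.4 and 38.5 in those with USCs medium. Calcium channel genes were at 34.2, 30.3 and 32.7 FPKM, then 29.9, 30.3 and 28.3, then 22.2, 22.5 and 23.6. Sodium channel genes were at 3.63, 3.17 and 3.29 FPKM, then 3.14, 3.30 and 3.01, then 1.46, 1.01 and 1.44. All 3 sums were lower in the libraries with USCs medium than in any normal or aging library, while normal and aging libraries overlapped. Set against aging RGCs, the log2 ratio of the group means in USCs medium was -0.28 for potassium, -0.38 for calcium and -1.27 for sodium channel genes, with no test. Each sum rests on a few genes, as Kcnn4 gave 38.1% of the potassium and Cacnb3 27.8% of the calcium channel sum. Most of the sodium channel sum came from a single gene, so its ratio does not describe the sodium channel genes as a class.

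**Figure D2:**
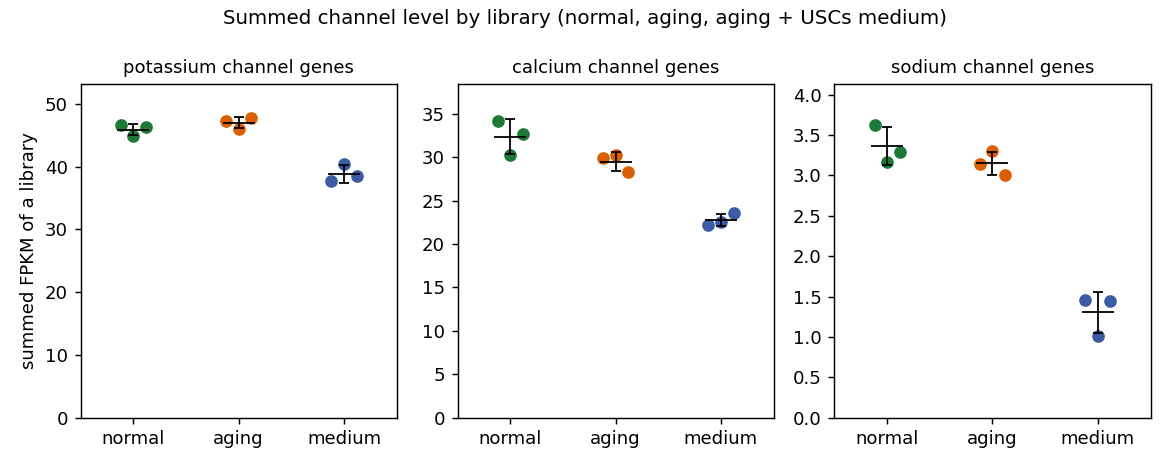
Summed level (FPKM, linear axes from 0) of the potassium, calcium and sodium channel genes in each of the 9 libraries, as points, with the group mean and 1 SD (n = 3). The 3 libraries with USCs medium lie below the other 6 in each panel, at 1.01 to 1.46 FPKM for sodium channel genes against 3.01 to 3.63.

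Between aging and normal RGCs, few channel genes changed. DEGs (differentially expressed genes) had an adjusted p under 0.05 in edgeR (quasi-likelihood test, Benjamini-Hochberg over all genes tested) and a log2 fold change of at least 1 in size. By this rule 2 members, Kcnh3 and Kcnq1, were downregulated in aging RGCs (1.56% of all genes tested) and 0 were upregulated (1.09% of all genes), so 6.25% of the tested members were DEGs against 2.65% of all genes. DESeq2 also gave 0 upregulated DEGs, and 4 members were higher at an unadjusted p under 0.05, none of them with a log2 fold change of 1 or more. By the adjusted p alone, 5 members were lower (23% of all genes) and 2 higher (23.6% of all genes), so the 7 calls were 21.9% of the tested members against 46.5% of all genes. Of the 32 members, 16 had a negative log2 fold change, the median was 0.01 against 0.00 over all genes tested, and 11 members had groups without overlap, against 53% of all genes.

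When aging cells with and without USCs medium were compared, the calls among channel genes all went down. The aging libraries are shared with the comparison above. There were 6 downregulated DEGs, Cacna1g, Cacna1i, Cacnb4 and Scn7a among them, against 4.21% of all genes tested, and 0 upregulated DEGs, against 1.24%, so 18.8% of the tested members were DEGs against 5.44% of all genes. By the adjusted p alone, 16 members were lower and 0 higher, against 26% and 27.1% of all genes, or 50% of the tested members against 53.1% of all genes in either direction. DESeq2 gave 0 upregulated DEGs as well, and 1 member, Kcnv2, was higher at an unadjusted p under 0.05, against 20 lower. Of the 32 members, 28 had a negative log2 fold change, the median was -0.47 against -0.01 over all genes tested, and the groups did not overlap for 21 members, against 59.8% of all genes. In limma on log2(FPKM + 0.1), Cacna1g and Cacna1i were still DEGs, and Cacnb4 and Scn7a were not, while with log2(FPKM + 1) none of the 6 was. By ion, 6 of 15 potassium, 7 of 13 calcium and 3 of 4 sodium channel genes were lower at the adjusted p, with median log2 fold changes of -0.32, -0.44 and -1.19. Of the sodium channel genes, Scn3a and Scn7a passed the low-count filter through groups other than USCs medium. The filter thus favoured lower values with USCs medium for them. The sodium count and median, and the DEG share through Scn7a, carry that limit. The plot of log2 fold changes sets both comparisons side by side.

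**Figure D3:**
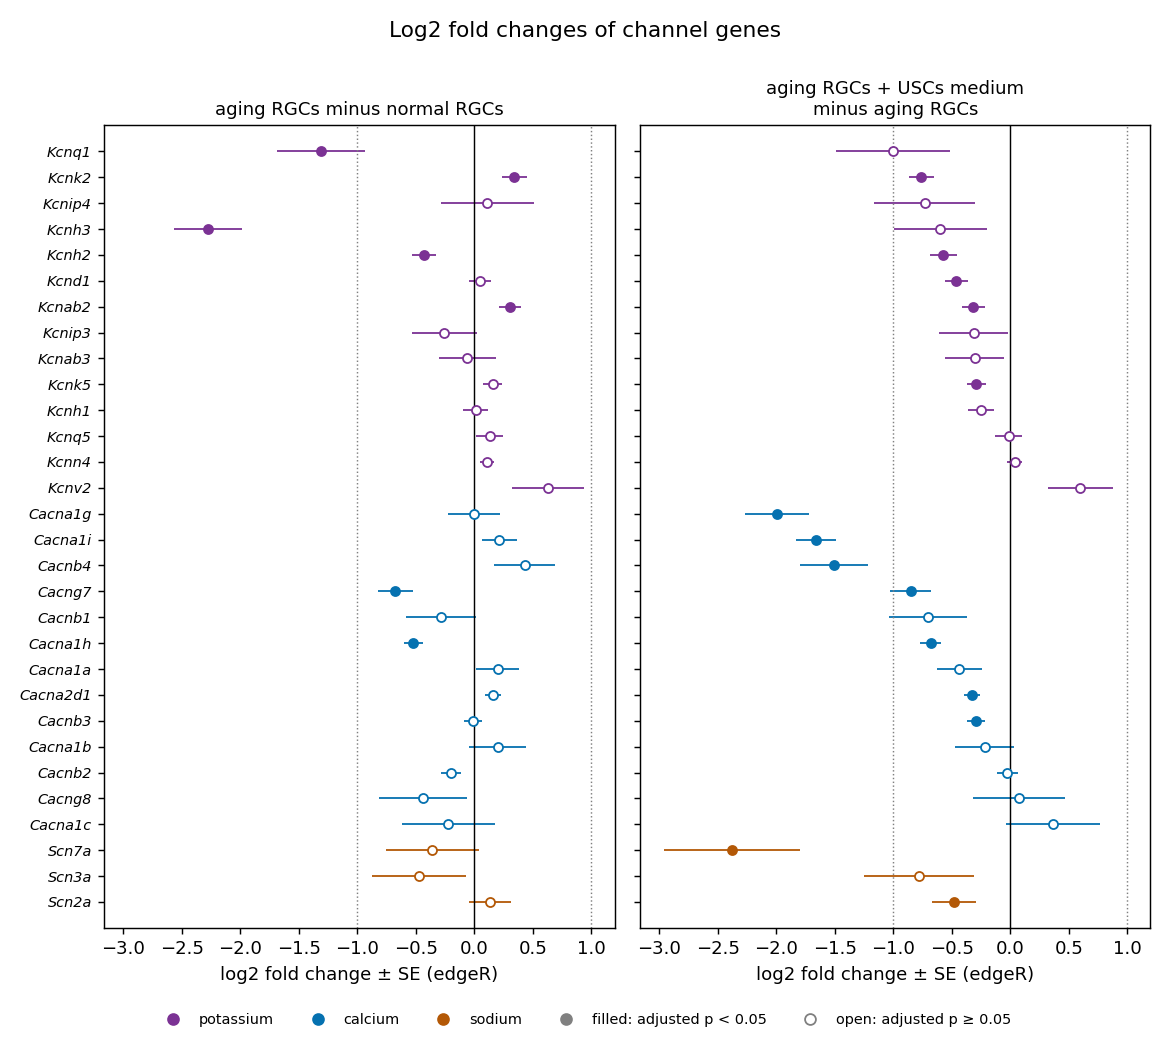
Log2 fold change (points, with bars of 1 standard error, edgeR) of 30 tested channel genes for aging against normal RGCs (left) and for USCs medium against aging RGCs (right), coloured by ion and filled where the adjusted p was under 0.05, with dotted lines at -1 and 1. Fold changes lie on both sides of 0 in the left panel, 15 of 30 being negative, and mostly below 0 in the right panel, 26 of 30 being negative.

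Aging RGCs + USCs medium were also set against normal RGCs, which shares libraries with both comparisons above. There were 10 downregulated DEGs (5.24% of all genes tested) and 1 upregulated DEG, Kcnv2 (1.47% of all genes), together 34.4% of the tested members against 6.72% of all genes. Of these DEGs, Kcnh3, Kcnq1, Scn3a and Scn7a passed the low-count filter through groups other than USCs medium. They could hardly enter except as lower there, so part of that share follows from the filter. Tested members also had lower levels than all genes tested, with medians of 0.837 and 11.1 FPKM. By the adjusted p alone, 18 members were lower and 2 higher, against 29.9% and 30.6% of all genes, and the 20 were 62.5% of the tested members against 60.5% of all genes. Groups did not overlap for 20 members, against 63.8% of all genes. The median log2 fold change of the members was -0.41 against -0.01 over all genes. Near the fold-change threshold, Cacnb4 lay inside at -1.08 and Scn3a at -1.25, with Cacna1h and Kcnv2 (values below) between them in size. Kcnh2 lay just outside at -0.999. Cacnb4, Scn3a, Cacna1h and Kcnv2 were not DEGs in limma on log2(FPKM + 1) or log2(FPKM + 0.1), and Kcnh2 was a DEG with the latter. The plot of DEGs by library shows 10 of the members that were DEGs in any comparison.

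**Figure D4:**
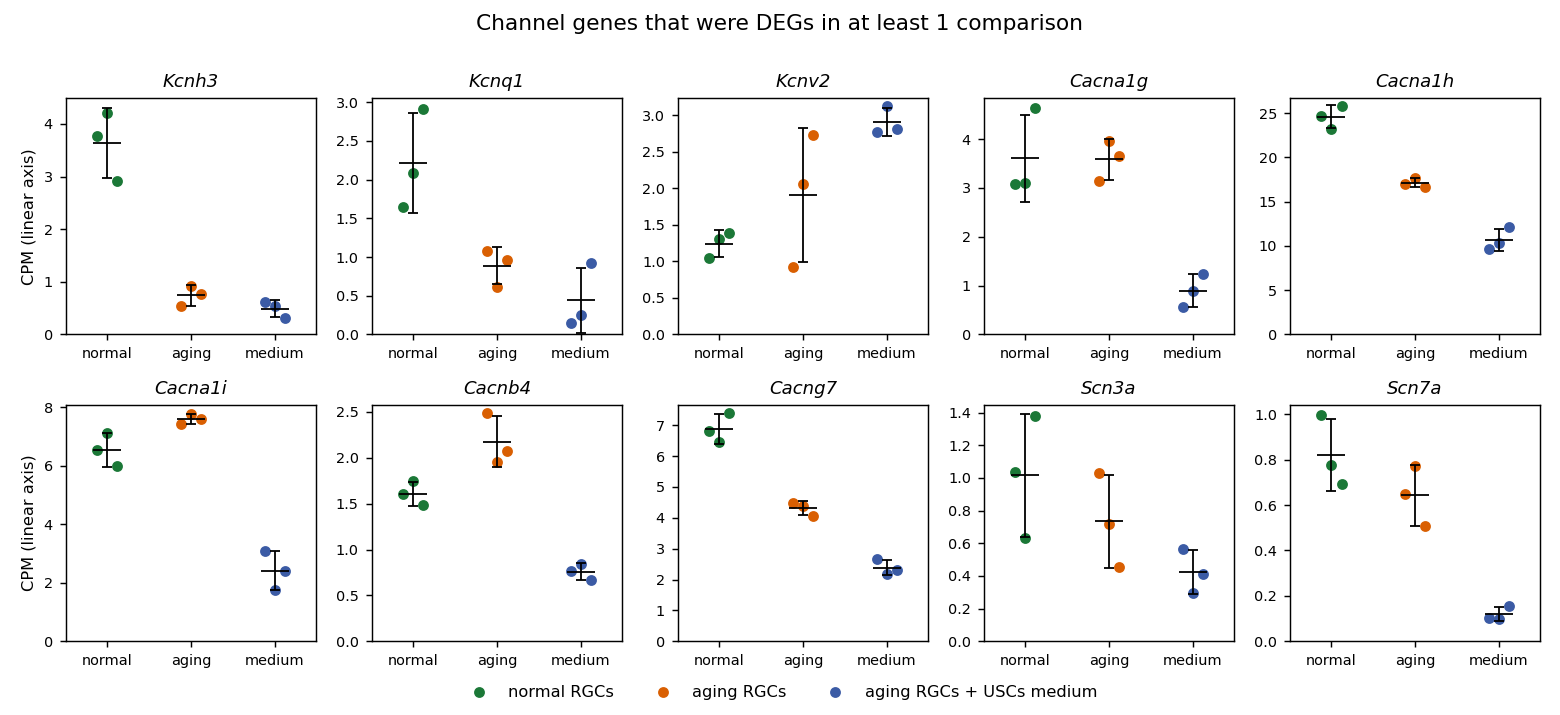
CPM (counts scaled by library total and TMM factor, linear axes from 0, scaled separately per gene) in each of the 9 libraries for 10 channel genes that were DEGs in at least 1 comparison, as points, with the group mean and 1 SD (n = 3). Kcnh3 and Kcnq1 fall between normal and aging RGCs, Cacna1g, Cacna1i, Cacnb4 and Scn7a between aging RGCs and aging RGCs + USCs medium.

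Among the alpha subunits of voltage-gated potassium channels, 8 of 40 genes were tested, and Kcnh3 changed most in aging against normal RGCs. Kcnh3 encodes Kv12.2, a subthreshold channel of forebrain neurons, on chromosome 15 of GRCm38 from 99224861 to 99242817. It was at 3.77, 4.22 and 2.91 CPM in normal RGCs, 0.541, 0.927 and 0.760 in aging RGCs and 0.616, 0.546 and 0.307 in aging RGCs + USCs medium. All normal libraries were above all others, while aging libraries with and without USCs medium overlapped. The log2 fold change was -2.28 (SE, the standard error of the fit, 0.29; adjusted p = 2.4e-07, edgeR) in aging against normal RGCs and -0.60 (SE 0.40, adjusted p = 0.21) with USCs medium against aging RGCs. Its counts were low, 233 over the normal libraries and 43 over the aging libraries, a ratio of 0.202 with an exact 95% counting interval of 0.142 to 0.280. Its exons overlap those of Mcrs1, a protein-coding gene on the other strand with 685 to 865 counts in normal and 794 to 904 in aging libraries. Mcrs1 rose in aging RGCs, with a log2 fold change of 0.35 (adjusted p = 5.0e-05, edgeR), and whether the reads were counted by strand is not given in the sources used here.

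Kcnq1, which encodes the slow delayed-rectifier subunit Kv7.1 of heart and epithelia, fell in the same comparison. It was at 1.65, 2.08 and 2.91 CPM in normal RGCs, 1.08, 0.618 and 0.962 in aging RGCs and 0.154, 0.248 and 0.922 in aging RGCs + USCs medium. Normal libraries were all above aging ones, and library 3 with USCs medium lay within the aging range. The log2 fold change was -1.31 (SE 0.37, adjusted p = 0.0051, edgeR) in aging against normal RGCs, and -0.999 (SE 0.49, adjusted p = 0.085) with USCs medium against aging RGCs, which did not pass. Without that library the latter was -2.10 with an adjusted p of 0.0030 (edgeR). Kcnq1 shares exon bases with the antisense gene Kcnq1ot1, which was not analysed here.

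Kcnh2, the hERG channel gene of cardiac repolarisation and the highest gene of its class in normal and aging RGCs, declined in both comparisons. It was at 16.1, 14.9 and 15.0 CPM in normal RGCs, 11.9, 11.9 and 10.4 in aging RGCs and 7.14, 8.83 and 7.02 in aging RGCs + USCs medium. None of the 3 groups overlapped another. The log2 fold changes were -0.43 (SE 0.10, adjusted p = 0.0011, edgeR) and -0.57 (SE 0.11, adjusted p = 1.0e-04).

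Kcnv2 encodes a silent subunit that alters Kv2 channels in photoreceptors. It was the only tested gene of the class with a positive log2 fold change with USCs medium against aging RGCs. It was at 1.04, 1.31 and 1.38 CPM in normal RGCs, 0.919, 2.06 and 2.73 in aging RGCs and 2.77, 3.13 and 2.82 in aging RGCs + USCs medium. Libraries with USCs medium were above all others, and aging libraries spread over the normal range and beyond it. Only the comparison of USCs medium with normal RGCs passed, with a log2 fold change of 1.23 (SE 0.29, adjusted p = 5.8e-04, edgeR), while the other steps were 0.63 (adjusted p = 0.095) and 0.60 (adjusted p = 0.068). Both of these rested on single aging libraries. Without aging library 1 they were 0.95 (adjusted p = 0.0073, edgeR) and 0.28 (adjusted p = 0.39), and without aging library 3 they were 0.27 (adjusted p = 0.56) and 0.95 (adjusted p = 0.014). The photoreceptor markers Rcvrn, Crx and Arr3 were at 0 in all libraries, and the 9 markers of that list summed to 0.417, 0.203 and 0.303 FPKM in the 3 groups. Of the other members of the class, Kcnd1, Kcnh1 and Kcnq5 had log2 fold changes between 0.01 and 0.13 in aging against normal RGCs, and none passed. With USCs medium against aging RGCs, Kcnd1, an A-type channel gene, had -0.46 (adjusted p = 2.7e-04, edgeR) and Kcnq5 had -0.01.

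Of the potassium channels opened by calcium or sodium, only Kcnn4 was tested. On the CPM scale it was at 31.9, 29.8 and 31.0 in normal RGCs, 32.8, 32.0 and 35 in aging RGCs and 33.6, 35.4 and 33.4 with USCs medium. Its log2 fold changes were 0.11 (SE 0.06, adjusted p = 0.16, edgeR) in aging against normal RGCs and 0.04 (SE 0.06, adjusted p = 0.65) with USCs medium against aging RGCs. The sign of the latter turned without TMM factors. With USCs medium against normal RGCs it was higher at the adjusted p (0.14, SE 0.06, adjusted p = 0.047, edgeR), with groups that did not overlap, but DESeq2 gave an adjusted p of 0.077. With a library left out that call was kept only without normal library 1 or aging library 3, and the adjusted p reached 0.159. The 250 bases before the start of Kcnn4 are shown because it was the highest member. They come from RefSeq on GRCm38.p6, chr7:24370013-24370262, plus strand, written 5′ to 3′.
Kcnn4: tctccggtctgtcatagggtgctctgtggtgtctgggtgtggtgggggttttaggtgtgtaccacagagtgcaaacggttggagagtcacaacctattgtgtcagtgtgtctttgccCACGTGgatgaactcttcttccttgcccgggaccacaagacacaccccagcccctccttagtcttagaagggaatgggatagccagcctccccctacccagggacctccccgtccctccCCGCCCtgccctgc
Capitals mark matches on either strand to an E-box (CACGTG), found in 6.02% of 32851 promoters of this length, and a GC box (GGGCGG, here read on the other strand as CCGCCC), found in 32.7%. The same search used TATAAA (12.4%), CCAAT (33.8%) and the STAT motif TTCNNNGAA (7.02%). A match is a description of the letters.

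The two-pore leak channel genes Kcnk2 and Kcnk5 had a higher mean FPKM over the 9 libraries than any voltage-gated alpha subunit gene, though in normal RGCs Kcnh2 at 3.73 FPKM was above Kcnk2 at 3.43. Kcnk2 encodes TREK-1, a leak channel that responds to stretch and lipids. It was at 11, 10.3 and 10.1 CPM in normal RGCs, 12.8, 14 and 13 in aging RGCs and 8.27, 8.49 and 6.76 in aging RGCs + USCs medium. The aging libraries were the highest and those with USCs medium the lowest, without overlap. The log2 fold change was 0.34 (SE 0.11, adjusted p = 0.0086, edgeR) in aging against normal RGCs and -0.76 (SE 0.11, adjusted p = 1.4e-06) with USCs medium against aging RGCs. Kcnk5, which encodes the pH-sensitive TASK-2 of epithelia, moved less, with log2 fold changes of 0.16 (adjusted p = 0.12) and -0.29 (adjusted p = 0.0042, edgeR). Among accessory subunits, Kcnab2, a beta subunit of Kv1 channels, was at 14.1 ± 1.45 CPM in normal RGCs, 17.4 ± 1.06 in aging RGCs and 14 ± 1.52 with USCs medium (SD, n = 3). Its log2 fold changes were 0.30 (adjusted p = 0.011, edgeR) and -0.31 (adjusted p = 0.0075), both below the fold-change threshold. The first call was lost without normal library 2 (0.22, adjusted p = 0.0683) and by limma on FPKM with either pseudocount (adjusted p up to 0.0775), and the second without library 1 with USCs medium (-0.23, adjusted p = 0.0721, edgeR). The alpha subunit genes Kcna1 and Kcna2 of the Kv1 family were at 0. Kcnj14, an inward rectifier, had 4, 1 and 1 counts in normal RGCs, 2, 2 and 6 in aging RGCs and 11, 7 and 13 with USCs medium, too few for a test in the main filter. It was the highest of its class only with USCs medium, as Kcnj12 was above it in normal RGCs (0.0833 against 0.0367 FPKM) and in aging RGCs (0.0967 against 0.0633 FPKM).

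Among the pore-forming calcium channel genes, those of the T-type, Cacna1g, Cacna1h and Cacna1i, were all lower with USCs medium. T-type channels open near the resting potential and carry small, brief currents, and the genes were put side by side after their values were seen. Cacna1g (Cav3.1), on chromosome 11 from 94408391 to 94474198, was at 3.08, 3.10 and 4.64 CPM in normal RGCs, 3.14, 3.97 and 3.65 in aging RGCs and 0.565, 0.893 and 1.23 in aging RGCs + USCs medium. Normal and aging libraries overlapped, and those with USCs medium were below both. The log2 fold change was 0.00 (SE 0.22, adjusted p = 0.99, edgeR) in aging against normal RGCs and -1.99 (SE 0.27, adjusted p = 5.6e-07) with USCs medium against aging RGCs. Cacna1i (Cav3.3), on chromosome 15 from 80287238 to 80398279, was at 6.54, 7.12 and 5.97 CPM, then 7.41, 7.78 and 7.6, then 3.08, 1.74 and 2.41. Its aging libraries were slightly above the normal ones without overlap, which did not pass the test (log2 fold change 0.21, SE 0.15, adjusted p = 0.25, edgeR), and the drop with USCs medium was -1.66 (SE 0.17, adjusted p = 4.6e-09).

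Cacna1h (Cav3.2), on chromosome 17 from 25374285 to 25433783, was the highest alpha1 gene and went down in both comparisons. It was at 24.7, 23.3 and 25.9 CPM in normal RGCs, 17.0, 17.7 and 16.7 in aging RGCs and 9.66, 10.4 and 12.1 in aging RGCs + USCs medium, with no overlap between any groups. The log2 fold changes were -0.52 (SE 0.08, adjusted p = 6.9e-06, edgeR) in aging against normal RGCs, -0.68 (SE 0.09, adjusted p = 4.4e-07) with USCs medium against aging RGCs and -1.20 (SE 0.09, adjusted p = 2.1e-12) with USCs medium against normal RGCs. In the deposited FPKM the libraries with USCs medium overlapped the aging ones, at 1.12, 2.25 and 2.16 against 2.11, 2.36 and 2.05 FPKM, and the drop from aging RGCs did not pass in limma with either pseudocount, with an adjusted p of up to 0.357. The drop from normal to aging RGCs did not pass in limma on log2(FPKM + 0.1), with an adjusted p of 0.0553, and by limma Cacna1h was no DEG with USCs medium against normal RGCs. Of the other 3 alpha1 genes tested, the P/Q-type Cacna1a, the N-type Cacna1b and the L-type Cacna1c, none passed in any comparison, and their log2 fold changes with USCs medium against aging RGCs were -0.44, -0.22 and 0.37.

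All 4 beta subunit genes were tested. Cacnb4, whose protein helps traffic neuronal calcium channels, was at 1.60, 1.74 and 1.48 CPM in normal RGCs, 2.49, 1.96 and 2.08 in aging RGCs and 0.771, 0.844 and 0.666 in aging RGCs + USCs medium. Its aging libraries were the highest and those with USCs medium the lowest. The rise in aging RGCs did not pass (log2 fold change 0.43, SE 0.26, adjusted p = 0.18, edgeR), and the drop with USCs medium was -1.51 (SE 0.29, adjusted p = 8.7e-05). Cacnb3 was the highest calcium channel gene by FPKM, though not by CPM. It was at 21.0 ± 1.22 CPM in normal RGCs, 20.9 ± 0.674 in aging RGCs and 17.1 ± 0.985 with USCs medium (SD, n = 3). Its log2 fold changes were -0.01 (adjusted p = 0.93) and -0.29 (adjusted p = 0.0028, edgeR). Cacnb2 had a log2 fold change of -0.02 with USCs medium against aging RGCs (adjusted p = 0.84), and Cacnb1 was not called there. With USCs medium against normal RGCs, all 4 beta subunit genes were lower at the adjusted p, against 29.9% of all genes. Only Cacnb4 was a DEG among them. The alpha2delta-1 gene Cacna2d1, whose product is bound by gabapentin, was at 33.1 ± 1.63, 37.0 ± 3.12 and 29.4 ± 2.23 CPM, with log2 fold changes of 0.16 (adjusted p = 0.063) and -0.33 (adjusted p = 2.9e-04, edgeR).

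Of the gamma subunit genes, Cacng7 and Cacng8 were tested, both of which encode auxiliary proteins of AMPA-type glutamate receptors more than of calcium channels. Cacng7, on chromosome 7 from 3332955 to 3368221, was at 6.80, 6.45 and 7.40 CPM in normal RGCs, 4.49, 4.38 and 4.05 in aging RGCs and 2.67, 2.18 and 2.30 in aging RGCs + USCs medium. None of the 3 groups overlapped another. Its log2 fold changes were -0.68 (SE 0.15, adjusted p = 4.9e-04, edgeR), -0.85 (SE 0.18, adjusted p = 1.7e-04) and, with USCs medium against normal RGCs, -1.53 (SE 0.16, adjusted p = 4.5e-09). Cacng8 was at 0.865 ± 0.411 CPM in aging RGCs (SD, n = 3) and passed in no comparison. The upstream 250 bases of Cacna1i (chr15:80286988-80287237, plus strand) and Cacng7 (chr7:3332575-3332824, plus strand), from the same RefSeq table and written 5′ to 3′, are shown as calcium channel DEGs with a single start in it.
Cacna1i: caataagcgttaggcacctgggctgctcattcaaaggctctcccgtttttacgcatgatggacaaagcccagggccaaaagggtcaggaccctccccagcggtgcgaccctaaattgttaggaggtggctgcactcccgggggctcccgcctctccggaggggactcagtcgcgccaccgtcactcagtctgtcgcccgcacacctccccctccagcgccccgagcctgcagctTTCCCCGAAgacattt
Cacng7: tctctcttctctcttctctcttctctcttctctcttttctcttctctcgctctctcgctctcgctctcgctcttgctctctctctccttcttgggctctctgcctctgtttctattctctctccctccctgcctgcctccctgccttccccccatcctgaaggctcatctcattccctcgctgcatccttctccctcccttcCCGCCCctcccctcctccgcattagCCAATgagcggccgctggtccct
Capitals mark a STAT motif match in Cacna1i, and a GC box (read on the other strand) and a CCAAT match in Cacng7. The 2 genes shared no motif of the 5 searched, and their GC content was 62.4% and 58%, against a median of 52.4% over all promoters.

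The sodium channel genes had the lowest summed level, and 4 of 14 were tested. Scn7a, which encodes Nax, a channel-like protein gated by extracellular sodium more than by voltage, dropped with USCs medium. It was at 0.996, 0.775 and 0.691 CPM in normal RGCs, 0.649, 0.773 and 0.506 in aging RGCs and 0.103, 0.0992 and 0.154 in aging RGCs + USCs medium. Normal and aging libraries overlapped, and the last group was below both but rested on 2, 2 and 3 counts. Over the libraries of a group, 7 counts with USCs medium against 37 in aging RGCs gave a ratio of 0.175 per count sequenced, with an exact 95% counting interval of 0.0657 to 0.397. The fitted log2 fold change was -2.38 (SE 0.58, adjusted p = 0.0011, edgeR), and in aging against normal RGCs it was -0.36 (SE 0.40, adjusted p = 0.49). The 250 bases upstream of Scn7a (chr2:66784911-66785160, minus strand), written 5′ to 3′ from the same table, are shown because of that drop.
Scn7a: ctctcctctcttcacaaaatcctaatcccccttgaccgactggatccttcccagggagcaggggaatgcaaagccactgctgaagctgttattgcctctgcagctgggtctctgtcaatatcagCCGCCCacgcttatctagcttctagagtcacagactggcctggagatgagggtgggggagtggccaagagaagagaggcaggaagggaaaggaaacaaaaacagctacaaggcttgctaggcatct
Capitals mark a GC box read on the other strand, which was the only match to the 5 motifs.

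Scn2a and Scn3a encode alpha subunits of neuronal sodium channels. Scn2a, the highest of the alpha subunit genes, was at 4.20, 3.05 and 3.75 CPM in normal RGCs, 3.95, 3.61 and 4.56 in aging RGCs and 2.67, 2.83 and 3.18 with USCs medium. Its drop with USCs medium against aging RGCs was -0.48 (SE 0.19, adjusted p = 0.034, edgeR), and DESeq2 gave an adjusted p of 0.0606. The call was also lost without aging library 1 or 3 or library 1 or 2 with USCs medium, where the adjusted p reached 0.147. Scn3a, a channel of embryonic neurons, was at 1.04, 0.630 and 1.38 CPM in normal RGCs, 1.03, 0.721 and 0.456 in aging RGCs and 0.565, 0.298 and 0.410 with USCs medium. Normal and USCs medium libraries were apart, with the aging libraries across both. Only that comparison passed, at a log2 fold change of -1.25 (SE 0.44, adjusted p = 0.015, edgeR), and it was no longer a DEG without normal library 3, without library 2 with USCs medium or in limma on FPKM with either pseudocount (adjusted p up to 0.133).

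The order of groups differed among the members named. For Kcnh3 and Kcnq1 the call lay between normal and aging RGCs, and the step to USCs medium did not pass. Cacna1h, Cacng7 and Kcnh2 were lower in aging than in normal RGCs and lower again with USCs medium at the adjusted p, although the second step of Cacna1h did not pass in FPKM. Kcnk2 and Kcnab2 were higher in aging RGCs and lower with USCs medium, although each call of Kcnab2 was lost with 1 library left out, and Kcnk2 with USCs medium was also lower than in normal RGCs (log2 fold change -0.42, adjusted p = 0.0021, edgeR), while Kcnab2 was not called there (-0.01, adjusted p = 0.93). Cacna1g, Cacna1i, Cacnb4 and Scn7a were not called between normal and aging RGCs and were lower with USCs medium. The aging libraries are shared by both steps. The marker sums moved in part with these genes, as the RGC and neuronal lists were lower in aging than in normal RGCs. The neuronal markers Syt1 (log2 fold change -1.12, adjusted p = 0.0013, edgeR) and Map2 (-0.47, adjusted p = 0.0010) fell with USCs medium against aging RGCs. They were 2 of the 3 tested in that list, with 0 higher, against 26% lower and 27.1% higher of all genes. Fn1 (-0.62, then -0.49), Col3a1 (-0.20, then -0.73) and Pdgfrb (-0.78, then -1.31), mesenchymal markers, were lower in both steps at the adjusted p. Vim was higher in the first (0.24) and uncalled in the second. The macrophage list was at 48.7 ± 4.95, 37.9 ± 1.91 and 29.6 ± 8.51 FPKM (SD, n = 3). That sum is mostly Cd68, which was not called in aging against normal RGCs (log2 fold change 0.10, adjusted p = 0.24, edgeR). Of the 7 tested macrophage markers, 5 were downregulated DEGs there, Adgre1, C1qb, Csf1r, Lyz2 and Tyrobp. Lyz2, a lysozyme gene, had 522, 210 and 265 counts in normal RGCs, 118, 23 and 38 in aging RGCs and 45, 20 and 241 with USCs medium. C1qb, a complement gene, had 21, 13 and 11 counts in normal RGCs, 0 in each aging library and 0, 0 and 15 with USCs medium. Library 3 with USCs medium thus stood apart in these markers, also for Adgre1 with 32 counts against 2 and 2, and it was the library of that group in which Kcnq1 was high. In normal RGCs the order differed, as library 1 was the highest for Lyz2 and Adgre1 and the lowest for Kcnq1. Of the 9 macrophage markers none was at 0 in all libraries. The glial list, led by Glul, summed to 50.6, 43.9 and 52.7 FPKM, the pigment epithelium list, led by Mitf, to 8.43, 6.21 and 6.68, and the muscle list, led by Tnnt2, to 7.73, 9.37 and 7.78. Their part in the channel results was not tested.

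Genes that work with these channels were taken from 8 lists with 72 genes, of which 41 were tested. Of these, 0 were upregulated and 3 downregulated DEGs in aging against normal RGCs, and 6 were higher and 14 lower at the adjusted p, against 23.6% and 23% of all genes. With USCs medium against aging RGCs, 1 was an upregulated and 4 were downregulated DEGs, with 3 higher and 18 lower at the adjusted p, against 27.1% and 26% of all genes. With USCs medium against normal RGCs there were 1 upregulated and 9 downregulated DEGs, and 5 were higher and 25 lower, against 30.6% and 29.9% of all genes. Upregulated and downregulated DEGs were 1.09% and 1.56%, 1.24% and 4.21%, and 1.47% and 5.24% of all genes tested in these comparisons.

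Regulators of calcium channels were in part lower in aging RGCs. RGK proteins bind the beta subunits and reduce calcium current, and STAC proteins keep channels at the surface, and 4 of the 6 tested genes of both families were lower at the adjusted p in aging RGCs and 0 higher, against 23% and 23.6% of all genes. Stac and Stac3 did not pass there, at -0.28 (adjusted p = 0.58, edgeR) and 0.53 (adjusted p = 0.23). Rem2, an RGK gene, was at 2.56, 1.70 and 2.02 CPM in normal RGCs, 1.03, 0.927 and 0.861 in aging RGCs and 0.822, 1.04 and 1.02 with USCs medium. Its log2 fold change was -1.16 (SE 0.30, adjusted p = 0.0019, edgeR) in aging RGCs and 0.04 (adjusted p = 0.93) with USCs medium. Stac2 was at 10.1, 9.21 and 10.1 CPM, then 4.54, 4.58 and 5.42, then 5.24, 4.47 and 5.33, with log2 fold changes of -1.01 (SE 0.13, adjusted p = 4.0e-07, edgeR) and 0.05 (adjusted p = 0.82). For both genes the normal libraries were above all others and the other groups overlapped. Rrad and Gem, the most abundant RGK genes, had log2 fold changes of -0.31 (adjusted p = 0.011) and -0.69 (adjusted p = 3.2e-05, edgeR) in aging RGCs, and Gem fell again with USCs medium by 0.80 (adjusted p = 2.4e-05). With USCs medium against normal RGCs, Gem at -1.49 (adjusted p = 1.1e-10) and Stac at -1.27 (adjusted p = 0.011, edgeR) were DEGs as well as Rem2.

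Pump and exchanger genes were among those lower with USCs medium against aging RGCs, 3 of 6 tested calcium pump and exchanger genes and 4 of 6 genes of the sodium-potassium pump, with 0 higher in either list, against 26% lower and 27.1% higher of all genes. Atp1b1, a beta subunit of the sodium-potassium pump that restores the gradients channels use, was at 58.0, 47.6 and 57.7 CPM in normal RGCs, 60.6, 58.4 and 66.1 in aging RGCs and 26.3, 27.5 and 25.6 with USCs medium. Its log2 fold change with USCs medium against aging RGCs was -1.22 (SE 0.07, adjusted p = 2.1e-14, edgeR). Atp1b2, another beta subunit, had 7 counts over the libraries with USCs medium against 36 in aging RGCs, a ratio of 0.180 with an exact 95% counting interval of 0.0674 to 0.409 (fitted log2 fold change -2.34, adjusted p = 0.0024, edgeR). Slc8a1, the sodium-calcium exchanger NCX1, was at 17.8, 14.8 and 16.3 CPM, then 11.6, 11.2 and 9.92, then 5.03, 6.60 and 4.56, so each group was below the one before it without overlap. Its log2 fold changes were -0.58 (SE 0.11, adjusted p = 1.0e-04, edgeR) and -1.01 (SE 0.13, adjusted p = 2.2e-07). Atp2b4, a calcium pump of the plasma membrane, fell by 1.21 (adjusted p = 0.0013, edgeR) and by 1.05 (adjusted p = 0.021) on the log2 scale, at 0.313, 0.163 and 0.0733 FPKM in the 3 groups. Atp2a3, a calcium pump of the endoplasmic reticulum, was a DEG with USCs medium against normal RGCs (log2 fold change -1.49, adjusted p = 3.8e-06, edgeR).

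Genes of calcium stores and store-operated entry were lower with USCs medium against aging RGCs in 5 of 8 tested cases and higher in 0, without a DEG, where 26% of all genes were lower and 27.1% higher. Itpr3, the most abundant inositol trisphosphate receptor gene, had a log2 fold change of -0.38 (adjusted p = 1.0e-09, edgeR), and Stim2, a sensor of store calcium, -0.09 (adjusted p = 0.13). Orai2, a channel for calcium entry, became a downregulated DEG against normal RGCs at -1.02 (adjusted p = 2.1e-13). The hyperpolarisation-activated channel gene Hcn2, with the highest level of its list, was not called (log2 fold change -0.37, adjusted p = 0.098, edgeR).

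Among the partners of sodium and potassium channels, with 5 and 2 genes tested, 0 genes were DEGs in edgeR, and with USCs medium against aging RGCs 1 gene of each list was lower at the adjusted p (26% of all genes). Nedd4l and Ank3, which encode a ubiquitin ligase and an anchor of sodium channels, had log2 fold changes of -0.26 (adjusted p = 3.9e-06, edgeR) and -0.19 (adjusted p = 1.2e-04) in aging RGCs and not called with USCs medium against aging RGCs. Amigo1, a partner of Kv2 channels and the highest potassium channel partner, had log2 fold changes of -0.34 (adjusted p = 0.011, edgeR) and -0.64 (adjusted p = 4.4e-05). In the list of calmodulin and REST regulators, 2 of 5 genes were higher and 2 lower with USCs medium against aging RGCs, against 27.1% and 26% of all genes. Calm2, the most abundant, had a log2 fold change of -0.01 in aging RGCs, uncalled, and of 0.14 (adjusted p = 3.8e-04, edgeR) with USCs medium. Rest, which encodes a repressor of neuronal genes including channels, was at 13.6, 15.9 and 12.4 FPKM in the 3 groups, with log2 fold changes of 0.25 (adjusted p = 1.9e-05, edgeR) and -0.27 (adjusted p = 3.4e-06).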

How the data were processed

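RNA of 9 libraries was sequenced from mRNA enriched by oligo(dT). The authors deposited, per gene and library, expected counts (estimated read numbers without normalization) and FPKM values scaled by length and library size. The genome build named in the submitters' processing notes is mm10, and neither aligner nor counting program is given in the sources used here. Of 22322 gene identifiers, 22267 matched GENCODE M21 on GRCm38, the source of the gene coordinates. Promoter sequences came from a RefSeq table on GRCm38.p6 that held 97 of the 132 members. No member had fractional counts, and other expected counts were rounded.

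Tests used edgeR 4.0.16 under R 4.3.3. The filterByExpr filter, which required about 0.498 CPM in 3 libraries, kept 12145 genes. TMM factors lay between 0.956 and 1.03, the model held 1 mean for each group over all 9 libraries (6 residual degrees of freedom), and the contrasts went through the quasi-likelihood test and Benjamini-Hochberg adjustment. The libraries came from replicate wells, so p-values measure the spread between wells. Same-numbered libraries of different groups correlated in their deviations at -0.048 to 0.047, so pairing by number was not shown, which does not exclude it. Counting intervals cover counting error only.

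Named members were all DEGs, the highest gene of each class by FPKM, and, per comparison and direction, up to 3 members at an adjusted p under 0.05 below the fold-change threshold, ranked by fold change, with a mean log2 CPM not below 0 and groups that did not overlap. Of partner lists, DEGs and the 2 highest genes were named. Others were chosen after their values were seen. Some genes that the rule names are not reported here. The members and lists were chosen with earlier results of these data known.

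Alternatives were DESeq2 1.42.0, the likelihood ratio test, no TMM or upper-quartile factors, the low-count filter dropped or set to 1 CPM in 3 libraries, the groups compared alone, a replicate block, other fold-change thresholds, limma 3.58.1 on log2(FPKM + 1) and log2(FPKM + 0.1), CPM in place of FPKM for summed levels, and each library left out. Marker lists of Müller glia, pigment epithelium and muscle were also summed.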

Additional observations from a re-analysis of the deposited data

How the results depend on the processing

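Depth limits the channel results, since 96 of 132 members had at most 10 counts in every library and 100 were not tested. The DEGs of the members were the same under DESeq2, the likelihood ratio test and fits of the compared groups alone. The number of channel DEGs moved with the fold-change threshold, the unit, the scaling and the low-count filter. Without the threshold, 2 were higher and 5 lower in aging against normal RGCs, 16 lower with USCs medium against aging RGCs, and 2 higher and 18 lower with USCs medium against normal RGCs. By limma on log2(FPKM + 1), which compresses low genes, the lower DEGs numbered 0, 0 and 1 in these comparisons and the higher one against normal RGCs 0. With a pseudocount of 0.1, 3 were lower with USCs medium against aging RGCs and 0 higher against normal RGCs. Without a low-count filter, 2 were higher and 13 lower against normal RGCs, with Kcnj14, Kcnn1, Kcnt1 and Scn11a added. Without TMM factors, or with upper-quartile factors, Cacnb1 and Kcnh2 were added to those lower against normal RGCs, 12 in all. Scn7a was not tested under the filter of 1 CPM. On the CPM scale the summed sodium channel level had a log2 ratio of -0.95 with USCs medium against aging RGCs and -0.98 against normal RGCs, where FPKM gave -1.27 for the former. Without TMM factors the median log2 fold change of all genes was -0.113, against -0.01 with them, in USCs medium against normal RGCs.

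With each library left out in turn, 2 members stayed lower in aging RGCs, 5 to 6 were lower with USCs medium against aging RGCs and 10 to 13 against normal RGCs, with 1 higher. Against normal RGCs, Scn3a left the list without normal replicate 3 or medium replicate 2, and Cacnb4 without medium replicate 3. With the replicate block the channel DEGs of the first 2 comparisons were unchanged, and Kcnh2 joined those lower against normal RGCs, 11 in all. Pairing was not shown by the data.

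Of 1137 repeats of the named genes' fold changes, 1063 kept direction and side of the threshold, 48 lost the call, 13 gained it and 13 changed sign, all of uncalled values near 0. Kcnn4 (USCs medium against aging RGCs) was -0.04 without TMM factors and by limma with either pseudocount (-0.040, -0.042). Scn2a in aging RGCs was -0.023 and -0.048 by limma. Cacna1g in aging RGCs was 0.00 (0.004) with the replicate block and -0.11 to 0.22 with a library left out, Cacnb3 there -0.051 to 0.035, and Kcnab2 against normal RGCs -0.091 to 0.075.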

Other observations

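Beyond the symbols used, 66 further genes carried a GO term with the words voltage-gated, and 36 of them were tested. In aging against normal RGCs, 10 were higher and 8 lower at the adjusted p, against 23.6% and 23% of all genes tested, with 1 downregulated DEG (1.56% of all genes), Cybb, a subunit of the phagocyte NADPH oxidase (log2 fold change -1.20, adjusted p = 0.0031, edgeR), whose groups overlapped and whose FPKM means were 0.893 in normal and 0.857 in aging RGCs, where library 1 was at 2.07. With USCs medium against aging RGCs, 8 were higher and 14 lower, against 27.1% and 26% of all genes. The downregulated DEG of that comparison was Clcn1, a chloride channel gene of skeletal muscle, at 2.70 ± 0.377 CPM in aging RGCs and 1.20 ± 0.340 CPM with USCs medium (SD, n = 3; log2 fold change -1.17, adjusted p = 3.8e-04, edgeR). In FPKM the Clcn1 groups overlapped, at 0.65, 0.85 and 0.81 in aging RGCs and 0.28, 0.43 and 1.23 with USCs medium. The mitochondrial porin genes Vdac1, Vdac2 and Vdac3 and the chloride channel family genes Clic1 and Clic4, the most abundant of the 66, were higher with USCs medium against aging RGCs, with log2 fold changes of 0.15 (adjusted p = 2.7e-04), 0.19 (adjusted p = 3.5e-05), 0.32 (adjusted p = 2.1e-08), 0.35 (adjusted p = 4.6e-10) and 0.27 (adjusted p = 6.4e-09, edgeR). Clic5 went the other way, at 8.62 ± 1.27 CPM in normal RGCs, 5.40 ± 0.298 in aging RGCs and 2.73 ± 0.404 with USCs medium (SD, n = 3), with log2 fold changes of -0.67 (adjusted p = 4.3e-04) and -0.99 (adjusted p = 2.1e-05, edgeR). These genes were named after their values were seen.

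Counts and FPKM of a gene together imply the transcript length that was used for scaling. For Cacna1h that length ran from 4.41 to 8.24 kb between libraries, a ratio of 1.87, with 8.24, 4.41 and 5.40 kb in the libraries with USCs medium. Among the other 13 members with a mean of at least 1 FPKM the ratio was at most 1.16, in Cacnb2. The Cacna1h groups overlapped in FPKM and not in CPM, both of which start from the same counts.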
